A study of Homo sapiens with 10 samples.

Results

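The collagens and laminins of RBM4 knockout HAP1 cells are described here. They are the protein-coding genes of the paired-end count table whose symbol is that of a collagen chain (COL, a number, A, a number) or a laminin chain (LAMA, LAMB or LAMC and a number). The rule found 56 genes, 44 collagens and 12 laminins, among 19737 protein-coding genes. Of these, 30 (22 collagens and 8 laminins) had enough counts to be tested, and 26 did not. HAP1 is a near-haploid adherent human line derived from the leukaemia line KBM-7. The paired-end libraries are of RBM4 KO clone 1 (n = 3), RBM4 KO clone 2 (n = 2) and wild type HAP1 (n = 3), all grown in the same serum-containing IMDM medium with no further treatment. A single-end pair adds 1 library labelled as an RBM4 KO clone, with no word on which clone, and 1 of wild type. Each knockout group is 1 clone, so what is particular to a clone and what follows from its genotype cannot be told apart within it.

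Collagen chains wind around each other into a triple helix, and each gene encodes 1 chain. Fibril-forming chains build rope-like fibrils, fibril-associated chains decorate them, and type IV chains build the sheet of the basement membrane. Laminins are cross-shaped trimers of 1 alpha, 1 beta and 1 gamma chain that form the other sheet of the basement membrane and are bound by integrins and dystroglycan. RBM4 encodes an RNA-binding protein known from splicing and translation.

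RBM4 itself had 22.3, 22.9 and 24.5 CPM (counts relative to library size after TMM scaling) in clone 1 and 25.3 and 25.8 CPM in clone 2, against 79.8, 79.8 and 78.7 CPM in wild type. The smallest paired-end library held 33192095 counts and the largest 55617525. HAP1 carries a BCR-ABL1 fusion, and both partner genes were measured (summed level 36.3 to 39.8 CPM in knockout and 29.9 to 34.3 CPM in wild type libraries). Of 10 haematopoietic markers, GATA1, MPO and CD3E had no count in any paired-end library and only ITGA2B averaged over 1 CPM, so the summed level, 9.09 to 11.4 CPM in knockout and 5.82 to 6.28 CPM in wild type libraries, was nearly all ITGA2B. Epithelial markers (8 genes, none at 0 over all libraries) summed to 68.5 to 84.4 CPM in knockout and 50.1 to 55.5 CPM in wild type libraries. Most of that was KRT18, at 48.4 to 58.6 CPM in knockout and 35.8 to 41.2 CPM in wild type libraries. KRT8 differed between the clones, at 15.7 and 13.1 CPM in clone 2 and 4.99 to 5.50 CPM in clone 1. In wild type libraries KRT8 had 3.85 to 4.37 CPM. Of the 8 genes 4 averaged under 1 CPM, and EPCAM lay above wild type in clone 1 and below it in clone 2. Endothelial markers (8 genes, CDH5 at 0) summed to 13.5 to 18.4 CPM in knockout and 13.6 to 15.2 CPM in wild type libraries. Only EGFL7 and ESAM among them averaged over 1 CPM. Fibroblast and mesenchymal markers (10 genes, DCN and LUM at 0) summed to 11.5 to 50.6 CPM in knockout and 11.3 to 12.4 CPM in wild type libraries. Their part in the results below was not tested.

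In the mean of both clones against wild type, 11 of the 30 tested chains rose and 6 fell (edgeR quasi-likelihood F test, Benjamini-Hochberg adjusted p below 0.05 over all features), and 13 were not called. Over all 20747 features tested, 9.87% rose and 8.09% fell, 18% in either direction. The chains that rose were COL17A1, COL5A2, LAMC3, COL7A1, COL1A1, COL9A3, COL19A1, LAMB2, LAMA5, COL6A2 and COL6A1. LAMA4, LAMA2, COL4A3, COL25A1, COL4A4 and LAMA3 fell. The libraries are of bulk cells, in which fewer cells expressing a chain and less RNA of it per cell cannot be told apart. The median log2 fold change was 0.08 over the 30 chains and 0.00 over all features. Fold changes were related to GC content (described further on), and with a GC offset in each library 8 chains rose and 8 fell. The shares over all features above are from the fit without this offset, and none with it is given here. Summed collagen levels overlapped between genotypes, at 788 to 888 CPM in knockout and 781 to 838 CPM in wild type libraries. Summed laminin levels were 529 to 574 CPM in knockout libraries, all above the 486 to 511 CPM of wild type. The laminins did not move together, with LAMA5, LAMB2 and LAMC3 called higher and LAMA2, LAMA3 and LAMA4 lower. The median log2 fold change of the 8 tested laminins was -0.08.

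**Figure D1:**
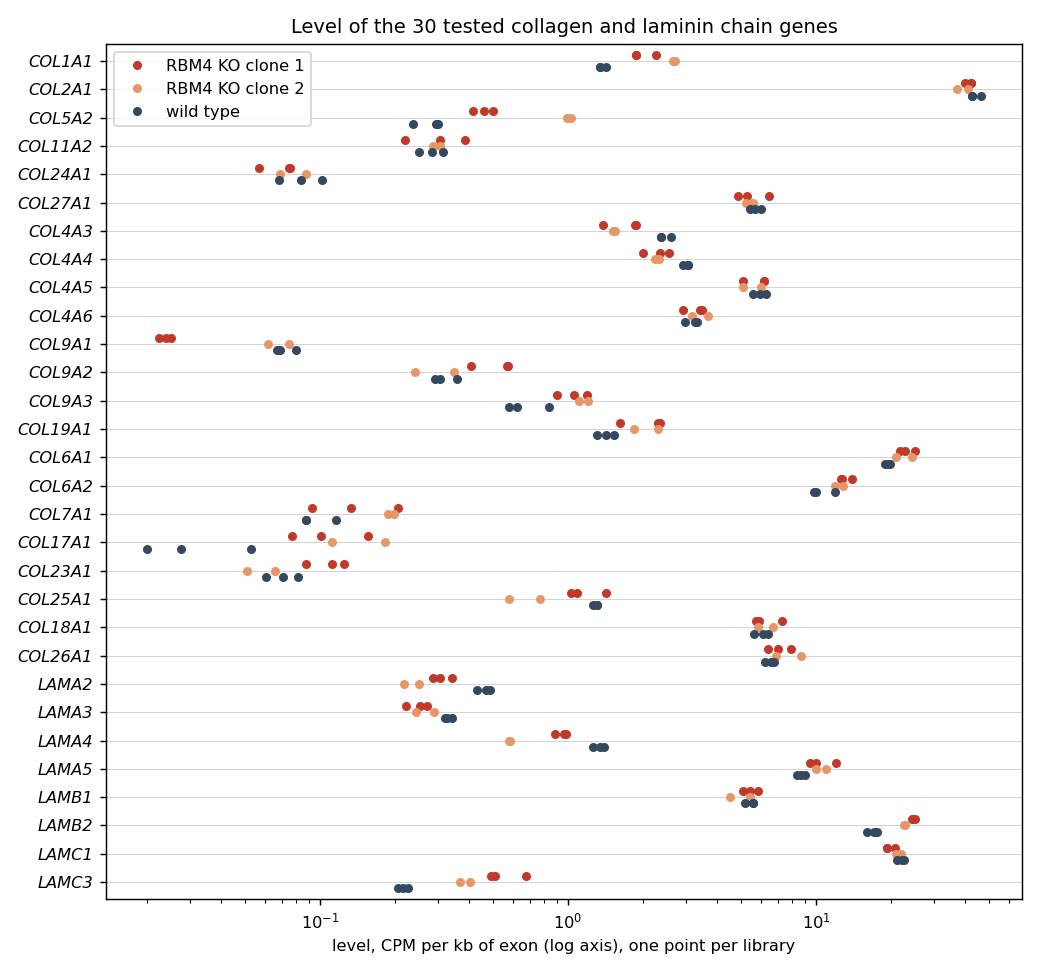
Level of each tested chain in each paired-end library (1 point per library), as CPM per kb of exon on a log axis, with genes grouped by structural role from top to bottom. COL2A1, LAMC1, COL6A1 and LAMB2 lie at the high end, and COL9A1, COL17A1, COL23A1, COL24A1 and COL7A1 at the low end.

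On a scale that sets genes roughly side by side, CPM per kb of all annotated exons, COL2A1, the chain of cartilage type II collagen, stood highest in wild type at 43.7 ± 2.13 (SD, n = 3). LAMC1 followed at 22.03 ± 0.695, COL6A1 at 19.4 ± 0.492, LAMB2 at 16.9 ± 0.779, COL6A2 at 10.6 ± 1.13 and LAMA5 at 8.71 ± 0.294. COL26A1 (6.53 ± 0.275), COL18A1 (6.05 ± 0.374), COL4A5 (5.92 ± 0.336), COL27A1 (5.69 ± 0.307) and LAMB1 (5.44 ± 0.236) came next, neighbours that differ by less than the sum of their SDs. In both clones LAMB2, at 24.7 ± 0.368 in clone 1 (n = 3) and 22.8 ± 0.113 in clone 2 (n = 2), stood above LAMC1, at 19.8 ± 0.891 and 21.5 ± 0.745.

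The type IV chains come in gene pairs that lie head to head and are read away from each other. COL4A3 (chr2:227164565-227314792, plus strand) and COL4A4 (chr2:227002711-227164453, minus strand) make the chains that join COL4A5 in the kidney glomerulus, and both fell. COL4A5 and COL4A6 on the X chromosome were not called, and COL4A1 and COL4A2, the chains of most basement membranes, were absent or nearly so. RefSeq promoter windows, from 250 bases before to 50 after each start (GRCh38.p14), are shown because the members of a pair share part of that window. Capitals mark the bases that both windows of a pair cover, on opposite strands. The window of COL4A3 is chr2:227164374-227164673 (plus) and that of COL4A4 is chr2:227164156-227164455 (minus). They share 82 bases, and the starts lie 419 bases apart.
COL4A3: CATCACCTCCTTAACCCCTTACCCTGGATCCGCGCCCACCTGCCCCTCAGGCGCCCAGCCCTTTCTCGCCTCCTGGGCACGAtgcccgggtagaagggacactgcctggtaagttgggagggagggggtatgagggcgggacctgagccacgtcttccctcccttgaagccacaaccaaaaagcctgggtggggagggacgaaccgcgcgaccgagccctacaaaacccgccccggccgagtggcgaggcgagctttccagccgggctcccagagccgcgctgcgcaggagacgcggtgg
COL4A4: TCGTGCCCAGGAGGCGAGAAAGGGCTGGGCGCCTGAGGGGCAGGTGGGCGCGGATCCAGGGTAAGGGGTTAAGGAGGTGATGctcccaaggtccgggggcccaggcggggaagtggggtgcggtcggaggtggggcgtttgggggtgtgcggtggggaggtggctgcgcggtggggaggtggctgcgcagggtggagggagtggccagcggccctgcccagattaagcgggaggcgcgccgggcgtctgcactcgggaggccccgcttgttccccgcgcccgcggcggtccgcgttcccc
The window of COL4A5 is chrX:108439588-108439887 (plus) and the COL4A6 window nearest to it is chrX:108439409-108439708 (minus). They share 121 bases, with the starts 380 bases apart.
COL4A5: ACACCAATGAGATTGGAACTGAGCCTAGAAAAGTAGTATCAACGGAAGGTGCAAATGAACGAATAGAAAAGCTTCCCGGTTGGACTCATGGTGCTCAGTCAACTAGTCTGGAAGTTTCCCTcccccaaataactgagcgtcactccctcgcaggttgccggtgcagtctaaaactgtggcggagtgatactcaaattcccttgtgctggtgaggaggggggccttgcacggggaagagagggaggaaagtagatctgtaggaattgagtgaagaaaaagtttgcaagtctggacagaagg
COL4A6: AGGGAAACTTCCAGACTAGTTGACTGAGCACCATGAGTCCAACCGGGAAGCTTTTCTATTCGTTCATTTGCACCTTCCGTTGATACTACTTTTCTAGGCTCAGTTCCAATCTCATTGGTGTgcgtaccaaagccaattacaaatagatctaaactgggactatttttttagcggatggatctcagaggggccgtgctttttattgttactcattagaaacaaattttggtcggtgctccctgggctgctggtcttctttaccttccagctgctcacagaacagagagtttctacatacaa
The windows of COL4A1, chr13:110307108-110307407 (minus), and COL4A2, chr13:110307034-110307333 (plus), share 226 bases, with the starts 127 bases apart.
COL4A1: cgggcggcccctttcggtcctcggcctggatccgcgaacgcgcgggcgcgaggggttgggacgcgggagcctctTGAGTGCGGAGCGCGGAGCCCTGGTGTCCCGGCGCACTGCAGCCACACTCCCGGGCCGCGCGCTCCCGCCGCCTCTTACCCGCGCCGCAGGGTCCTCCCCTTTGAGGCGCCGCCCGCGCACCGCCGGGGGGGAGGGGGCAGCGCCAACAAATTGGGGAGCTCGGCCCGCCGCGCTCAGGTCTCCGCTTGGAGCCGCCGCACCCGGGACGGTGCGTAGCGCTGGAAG
COL4A2: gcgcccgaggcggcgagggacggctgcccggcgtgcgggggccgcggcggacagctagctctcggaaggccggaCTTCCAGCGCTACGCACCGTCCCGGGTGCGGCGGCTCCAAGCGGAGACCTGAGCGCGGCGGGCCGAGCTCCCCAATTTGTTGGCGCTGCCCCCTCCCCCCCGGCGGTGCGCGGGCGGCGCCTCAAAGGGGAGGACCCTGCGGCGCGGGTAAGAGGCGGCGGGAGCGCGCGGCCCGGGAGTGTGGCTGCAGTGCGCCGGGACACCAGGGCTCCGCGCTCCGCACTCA
The letters CCAAT, searched on both strands, are in the windows of COL4A5, COL4A6, COL4A1 and COL4A2 and not in those of COL4A3 and COL4A4. The letters GGGCGG are in the windows of COL4A3, COL4A1 and COL4A2, and TATAAA is in none of the 6. None of these strings contains another. Among 27167 windows of the same length CCAAT is in 35.7%, GGGCGG in 44.5% and TATAAA in 12%, and among the 41 chain genes with a window in 26.8%, 58.5% and 12.2%. The windows of the pair that fell hold 67.7% (COL4A3) and 74.0% (COL4A4) G and C, against 49.3% (COL4A5) and 43.7% (COL4A6) in the pair that was not called. The untested pair holds the most, 76.7% (COL4A1) and 77.7% (COL4A2).

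COL4A3 had 12.7, 17.1 and 17.0 CPM in clone 1 libraries and 13.8 and 14.2 CPM in those of clone 2, against 23.8, 21.7 and 21.7 CPM in wild type. COL4A4 had 20.3, 25.6 and 23.7 CPM in clone 1 libraries and 23.5 and 22.6 CPM in those of clone 2, against 30.8, 29.4 and 30.6 CPM in wild type. For both genes every knockout library lay below every wild type library. Over all features 11.8% stood that way and 13.5% had every knockout library above every wild type library. In the mean of clones COL4A3 fell by 0.60 on the log2 scale (SE 0.09, adjusted p = 0.000603) and COL4A4 fell by 0.39 (SE 0.07, adjusted p = 0.00202). Each also fell in each clone, COL4A3 by 0.52 in clone 1 and 0.68 in clone 2 and COL4A4 by 0.38 and 0.40, against the same wild type libraries. COL4A5 averaged 68.9 ± 7.35 CPM in clone 1, 65.8 ± 7.85 CPM in clone 2 and 70.3 ± 3.99 CPM in wild type, a log2 difference of -0.06 in the mean of clones (95% interval -0.23 to 0.11). COL4A6 averaged 30.3 ± 2.87, 31.7 ± 3.25 and 29.4 ± 1.79 CPM in the same groups, a log2 difference of 0.08 (95% interval -0.08 to 0.24). The column names carry sample numbers, and high ones belong to knockout libraries only. With the libraries of low sample number alone (3 wild type and 1 of each clone) COL4A5 was called lower (log2 -0.22, adjusted p = 0.0100), and likewise with a sample-number block (log2 -0.22, adjusted p = 0.0135). As a share of the summed type IV level per kb, COL4A3 and COL4A4 together took 28.2% to 31.8% in knockout libraries and 36.1% to 39.9% in wild type libraries. COL4A1 had no count in any of the 8 paired-end or 2 single-end libraries, where a limit of 3 counts corresponds to 0.0541 to 0.0906 CPM in the paired-end libraries. COL4A2 had 17 counts in all 8 paired-end libraries, at most 5 in any 1.

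**Figure D2:**
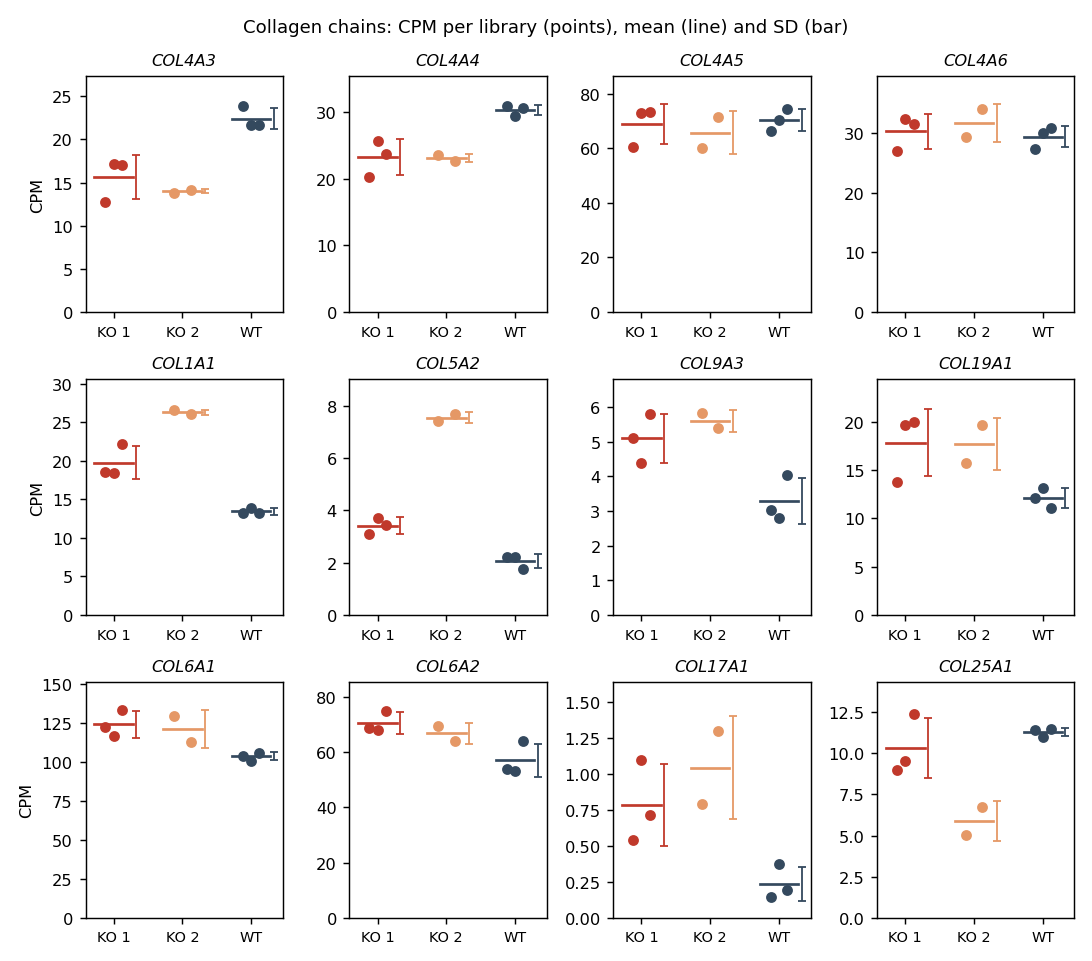
CPM per paired-end library (points) for 12 collagen chains in RBM4 KO clone 1, RBM4 KO clone 2 and wild type, with the group mean (line) and SD (bar). All axes start at 0, and the panels of COL4A3 and COL4A4 show every knockout point below the wild type points, while those of COL4A5 and COL4A6 overlap.

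All 4 tested laminin alpha chains were called, LAMA5 upwards and LAMA2, LAMA3 and LAMA4 downwards. LAMA4, the alpha chain of vascular and adipose basement membranes (chr6:112108760-112254939, minus strand), had 11.2, 11.4 and 10.3 CPM in clone 1 libraries and 6.76 and 6.67 CPM in those of clone 2, against 16.2, 15.5 and 14.6 CPM in wild type. The 3 groups did not overlap, with clone 2 lowest. In the mean of clones LAMA4 fell by 0.85 on the log2 scale (SE 0.07, adjusted p = 4.56e-06). LAMA2, the alpha chain of the muscle basement membrane that is mutated in a congenital muscular dystrophy, had 3.17, 3.52 and 2.96 CPM in clone 1 libraries and 2.60 and 2.25 CPM in those of clone 2, against 5.01, 4.82 and 4.46 CPM in wild type. It fell by 0.77 (SE 0.11, adjusted p = 0.000467), again with no overlap between genotypes. LAMA3, the alpha chain of the epidermal anchoring laminin, averaged 3.65 ± 0.352 CPM in clone 1 and 3.91 ± 0.452 CPM in clone 2, against 4.83 ± 0.158 CPM in wild type. Its fall of 0.35 (SE 0.11, adjusted p = 0.0421) was lost under 8 of the 20 alternatives. Among them were leaving out clone 1 replicate 3 (adjusted p = 0.0512), clone 2 replicate 1 (0.141), or wild type replicate 1 (0.155), 2 (0.0879) or 3 (0.0920).

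LAMA5, a widely expressed alpha chain of epithelial, vascular and embryonic basement membranes, had 136, 143 and 173 CPM in clone 1 libraries and 157 and 143 CPM in those of clone 2, against 120, 124 and 129 CPM in wild type. Every knockout library lay above every wild type library, with a log2 fold change of 0.27 (SE 0.07, adjusted p = 0.0246). The call was lost with the GC offset (log2 0.15, adjusted p = 0.0934), with a sample-number block (0.131), and without clone 2 replicate 1 (0.0708) or wild type replicate 1 (0.111), 2 (0.0820) or 3 (0.0505). As a share of the summed alpha chain level per kb, LAMA5 took 86.3% to 91.1% in knockout libraries and 79.1% to 81.7% in wild type libraries. Neither this share nor the others given carries a GC correction. The share of LAMA4 was 4.83% to 8.79% in knockout libraries and 11.4% to 13.1% in wild type libraries.

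The beta chains differed. LAMB2, the beta chain of glomerular and synaptic basement membranes (chr3:49121114-49133118, minus strand), had 169, 168 and 173 CPM in clone 1 libraries and 157 and 156 CPM in those of clone 2, against 117, 111 and 121 CPM in wild type. It rose 1.40-fold in the mean of clones (log2 0.48, SE 0.05, adjusted p = 9.38e-06), and was called in each clone. LAMB1, the widely used partner chain, averaged 44.5 ± 3.18 CPM in clone 1, 40.2 ± 5.32 CPM in clone 2 and 44.3 ± 1.92 CPM in wild type, a log2 difference of -0.06 (95% interval -0.21 to 0.08). It was called lower with low sample numbers only (log2 -0.19, adjusted p = 0.0243). LAMB2 took 80.6% to 83.6% of the summed beta chain level per kb in knockout libraries and 74.3% to 76.8% in wild type libraries.

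Among gamma chains, LAMC1, part of most laminins, averaged 166 ± 7.49 CPM in clone 1, 181 ± 6.26 CPM in clone 2 and 185 ± 5.85 CPM in wild type and was not called (log2 -0.09, 95% interval -0.20 to 0.01). In clone 1 alone its log2 difference was -0.15 (adjusted p = 0.0655), and it was called lower there in 7 of 19 alternatives, among them the GC offset (adjusted p = 0.0298) and leaving out clone 1 replicate 2 (0.0395). LAMC3, a less widely expressed gamma chain known from brain and retina, had 3.87, 3.72 and 5.13 CPM in clone 1 libraries and 3.07 and 2.78 CPM in those of clone 2, against 1.57, 1.71 and 1.65 CPM in wild type. It rose 2.14-fold (log2 1.10, SE 0.15, adjusted p = 0.000234), with no overlap between the genotypes. Even so LAMC3 made up only 1.64% to 3.39% of the summed gamma chain level per kb in knockout libraries, against 0.953% to 1.00% in wild type libraries. LAMB3, the beta chain that partners LAMA3 in the epidermal laminin, had 5 counts in all paired-end libraries together, none of them in wild type, and LAMA1 had none.

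**Figure D3:**
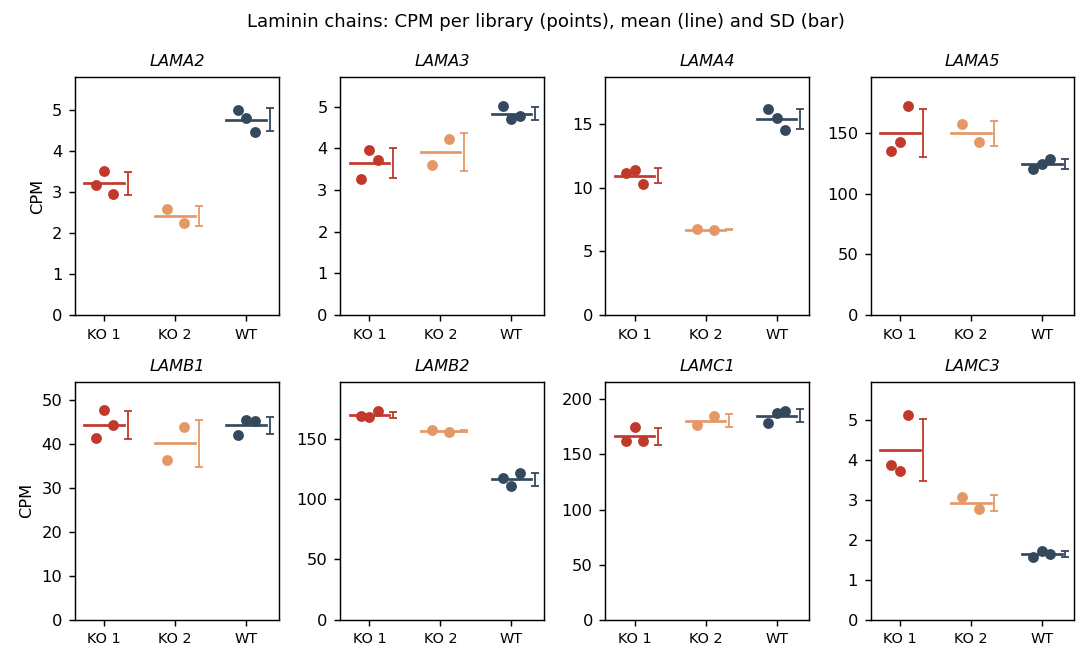
CPM per paired-end library (points) for the 8 tested laminin chains in RBM4 KO clone 1, RBM4 KO clone 2 and wild type, with the group mean (line) and SD (bar), all axes from 0. LAMA2, LAMA3 and LAMA4 lie lower and LAMA5, LAMB2 and LAMC3 higher in every knockout library than in any wild type library.

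Of 11 fibril-forming chains 6 were tested, and COL1A1 and COL5A2 rose. COL1A1, the major chain of type I collagen of bone, skin and tendon (chr17:50183289-50201632, minus strand), had 18.6, 18.5 and 22.2 CPM in clone 1 libraries and 26.5 and 26.0 CPM in those of clone 2, against 13.2, 13.9 and 13.2 CPM in wild type. It rose 1.70-fold (log2 0.76, SE 0.08, adjusted p = 1.28e-05), and the 3 groups did not overlap. COL1A2, its partner in the type I trimer, had no count in any of the 10 libraries. COL5A2, a type V chain that limits fibril width (chr2:189031896-189225312, minus strand), had 3.08, 3.72 and 3.43 CPM in clone 1 libraries and 7.40 and 7.69 CPM in those of clone 2, against 2.23, 2.20 and 1.77 CPM in wild type. The groups stood apart with clone 2 highest, and the rise was 2.46-fold in the mean of clones (log2 1.30, SE 0.13, adjusted p = 1.09e-05). With both clones as 1 knockout group its adjusted p was 0.0528. COL5A1, the usual partner of COL5A2, had no count in any library, and COL3A1, the neighbouring gene on chromosome 2 that lies tail to tail with COL5A2, had 2 counts over the paired-end libraries, both in clone 2.

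COL2A1 had 279.8, 266.6 and 282.2 CPM in clone 1 libraries and 272.5 and 246.5 CPM in those of clone 2, against 282.5, 283.7 and 307.6 CPM in wild type. The values lay close together, though every knockout library lay below every wild type library, the nearest at 282.2 and 282.5 CPM. The log2 difference of -0.12 was not called (95% interval -0.23 to -0.01, adjusted p = 0.125). With the GC offset COL2A1 was called lower (log2 -0.24, adjusted p = 0.000957). COL2A1 made up 33.4% to 36.8% of the summed collagen level per kb in knockout libraries and 38.5% to 39.2% in wild type libraries. COL27A1, a fibril-forming chain of cartilage, averaged 77.3 ± 11.7, 75.2 ± 3.57 and 79.6 ± 4.295 CPM in clone 1, clone 2 and wild type and was not called (log2 -0.06, 95% interval -0.24 to 0.12), though it was called lower with low sample numbers only (log2 -0.18, adjusted p = 0.0268). COL11A2, which assembles with COL2A1 in cartilage, and COL24A1 were not called either and averaged at most 2.04 CPM in any group.

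Both tested beaded-filament chains, COL6A1 and COL6A2, rose. They make type VI collagen, a microfibril around cells, and are neighbours on chromosome 21, read in the same direction (chr21:45981737-46005050 and chr21:46098097-46132849). COL6A1 had 122, 117 and 134 CPM in clone 1 libraries and 130 and 113 CPM in those of clone 2, against 104, 101 and 106 CPM in wild type. COL6A2 had 68.8, 68.0 and 75.1 CPM in clone 1 libraries and 69.5 and 64.2 CPM in those of clone 2, against 54.0, 53.1 and 64.1 CPM in wild type. No knockout library overlapped wild type for either gene, though the lowest COL6A2 value of clone 2 lay close to the highest of wild type. The log2 fold changes were 0.24 for COL6A1 (SE 0.06, adjusted p = 0.0126) and 0.27 for COL6A2 (SE 0.07, adjusted p = 0.0152). In clone 2 alone neither passed the threshold (adjusted p = 0.0666 and 0.104). COL6A2 lost its call with the GC offset (log2 0.15, adjusted p = 0.0805), with low sample numbers only (0.0689) and without clone 2 replicate 1 (0.0532), wild type replicate 1 (0.105) or wild type replicate 2 (0.109). COL6A1 lost it without the same 3 libraries, at adjusted p of 0.0626, 0.0626 and 0.0825, and with the GC offset and replicate block together (0.0603). COL6A3, the chain they usually assemble with, had 2 counts over the paired-end libraries, and COL6A5 and COL6A6 had none there.

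Of 4 tested fibril-associated chains 2, COL9A3 and COL19A1, rose in the mean of clones and COL9A1 and COL9A2 were not called. COL9A3, a type IX chain of cartilage (chr20:62816244-62841159, plus strand), had 5.11, 4.37 and 5.80 CPM in clone 1 libraries and 5.82 and 5.38 CPM in those of clone 2, against 3.02, 2.80 and 4.05 CPM in wild type. It rose 1.61-fold (log2 0.69, SE 0.14, adjusted p = 0.00453) with no overlap. COL19A1, a type XIX chain described at basement membrane zones, had 13.8, 19.7 and 19.97 CPM in clone 1 libraries and 15.8 and 19.6 CPM in those of clone 2, against 12.1, 13.1 and 11.1 CPM in wild type. On the log2 scale it rose by 0.56 (SE 0.13, adjusted p = 0.0146), and the call was lost without wild type replicate 1 (0.0686) or 3 (0.0606). With low sample numbers only the log2 fold change was 0.28, and in clone 1 it was 0.19 (adjusted p = 0.284), or 0.26 with a sample-number block (adjusted p = 0.0971), against 0.57 with all libraries. COL9A1, the type IX chain that lies tail to tail with COL19A1 on chromosome 6, had 0.181, 0.162 and 0.173 CPM in clone 1 libraries and 0.545 and 0.446 CPM in those of clone 2, against 0.499, 0.485 and 0.582 CPM in wild type. Clone 1 stood apart, at 6 to 9 counts per library, and in that clone COL9A1 fell by 1.60 (adjusted p = 0.00650), while the log2 difference of clone 2 was -0.08 (95% interval -0.77 to 0.61). COL9A1 passed the filter on low counts, 0.243 CPM, through clone 2 and wild type only. COL9A2, the remaining type IX chain, averaged 2.17 ± 0.398 CPM in clone 1, 1.24 ± 0.312 CPM in clone 2 and 1.34 ± 0.146 CPM in wild type, and rose in clone 1 (log2 0.68, adjusted p = 0.0381). That call was lost with the GC offset (0.0532) and without clone 1 replicate 1 (0.0817) or 3 (0.109) or wild type replicate 1 (0.132), 2 (0.127) or 3 (0.0567). The difference between clones was not called for COL9A1 (adjusted p = 0.0557) or COL9A2 (adjusted p = 0.138). It was called in 3 of 18 alternatives for COL9A1, among them the GC offset (0.0425), and in 2 of 19 for COL9A2. In the mean of clones COL9A1 lay near the threshold (log2 -0.84, adjusted p = 0.0511).

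COL17A1, the transmembrane collagen of the epidermal hemidesmosome (chr10:104031286-104085957, minus strand), had 18, 61 and 29 counts in clone 1 and 32 and 61 counts in clone 2, against 6, 13 and 8 counts in wild type. In CPM, these were 0.544, 1.10 and 0.716, then 0.792 and 1.30, against 0.142, 0.371 and 0.194, so that every knockout library lay above every wild type library. The fitted log2 fold change was 1.99 (SE 0.37, adjusted p = 0.00242). COL17A1 reached the filter in all 5 knockout libraries and in 1 wild type library. It thus passed the filter through the knockout libraries, where it was high, which favoured a difference. COL7A1, which forms the anchoring fibrils under the epidermis, had 1.03, 1.48 and 2.295 CPM in clone 1 libraries and 2.20 and 2.08 CPM in those of clone 2, against 1.28, 0.970 and 0.970 CPM in wild type. Its groups overlapped through clone 1 replicate 1, and its call (log2 0.78, SE 0.24, adjusted p = 0.0354) was lost under 11 of 20 alternatives. These included the GC offset (0.0739), low sample numbers only (0.163) and leaving out clone 2 replicate 1 (0.0764) or 2 (0.0542), or wild type replicate 1 (0.0592), 2 (0.125) or 3 (0.125). COL25A1, a transmembrane collagen of neurons, had 9.003, 9.51 and 12.4 CPM in clone 1 libraries and 5.05 and 6.76 CPM in those of clone 2, against 11.4, 10.99 and 11.5 CPM in wild type. Both clone 2 libraries lay below all others, while clone 1 overlapped wild type. Its fall of 0.53 in the mean of clones (SE 0.12, adjusted p = 0.00762) came with a fall of 0.93 in clone 2 (adjusted p = 0.00144) and a log2 difference of -0.13 in clone 1 (95% interval -0.41 to 0.15). With both clones as 1 group its adjusted p was 0.333. COL23A1, another transmembrane chain, averaged at most 0.407 CPM in any group and was not called.

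COL18A1, the source of endostatin, averaged 53.7 ± 7.33 CPM in clone 1, 53.5 ± 5.48 CPM in clone 2 and 51.5 ± 3.19 CPM in wild type (log2 0.06, 95% interval -0.13 to 0.24). Its exons share 16.4% of their length with SLC19A1 on the opposite strand, and the sources used here do not give whether the counting used strand, so part of its counts may belong to that gene. COL26A1 averaged 22.5 ± 2.40, 24.7 ± 4.10 and 20.6 ± 0.868 CPM in the same groups and was not called (log2 0.19, adjusted p = 0.158). It was called higher with low sample numbers only (adjusted p = 0.0148) and without clone 2 replicate 2 (adjusted p = 0.0416).

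**Figure D4:**
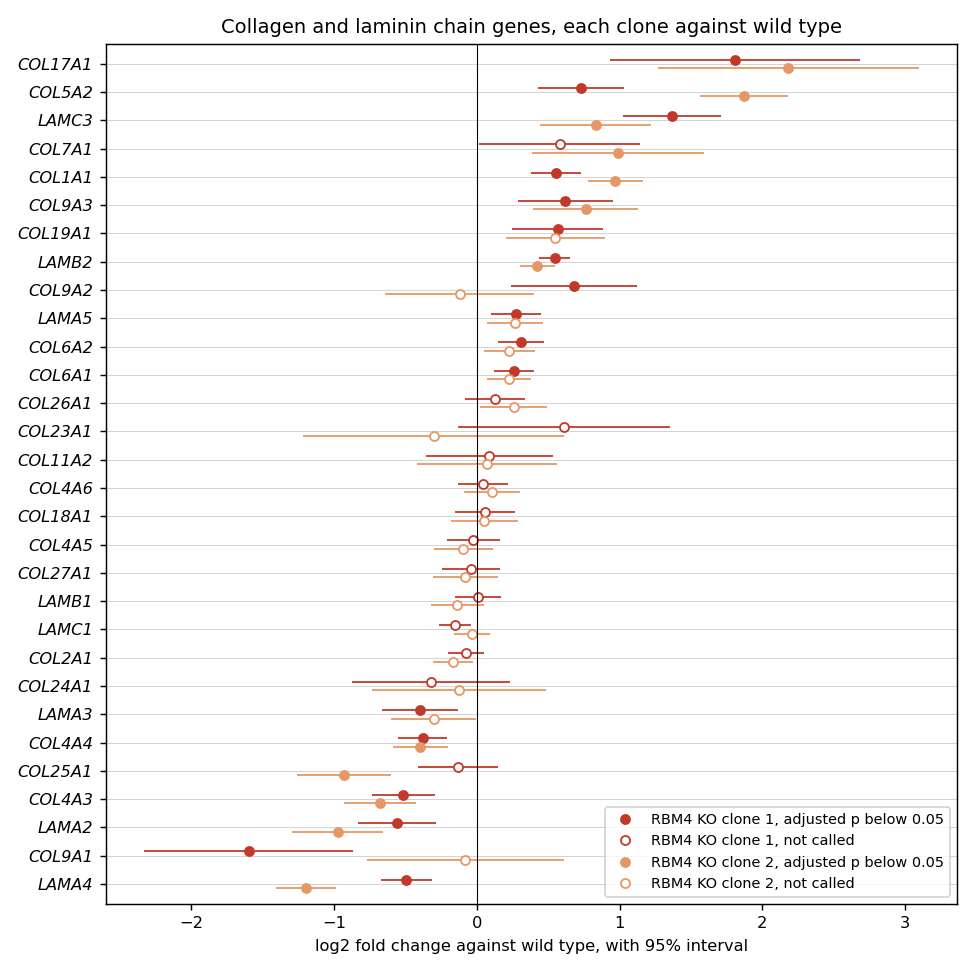
Log2 fold change of each tested chain in RBM4 KO clone 1 (dark red) and RBM4 KO clone 2 (orange) against the same wild type libraries, with 95% intervals as bars, sorted by the mean of clones. Filled points have an adjusted p below 0.05, and the clones lie furthest apart for COL9A1, COL5A2, COL23A1, COL9A2 and COL25A1.

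Set apart by clone, 11 chains rose and 6 fell in clone 1 (9.37% and 6.64% of all features, 16% in either direction), and 7 rose and 5 fell in clone 2 (6.18% and 4.59%, 10.8% in either direction). Both contrasts use the same wild type libraries, so a call in each is not independent of the other. COL17A1, COL1A1, COL5A2, COL9A3, LAMB2 and LAMC3 were called higher in each clone, and COL4A3, COL4A4, LAMA2 and LAMA4 lower. COL19A1, COL6A1, COL6A2, LAMA5, COL9A2 (higher), COL9A1 and LAMA3 (lower) were called in clone 1 and not in clone 2, and COL7A1 (higher) and COL25A1 (lower) in clone 2 and not in clone 1. The split lies near the threshold for several chains and is no test of a difference between clones. Of 19 alternatives, the clone 1 call was lost in 8 for LAMA5, in 7 for COL6A2 and for LAMA3, in 6 for COL19A1 and in 5 for COL6A1. In clone 2, COL19A1 (adjusted p = 0.0506) was called in 10 of 19 alternatives, COL6A1 and LAMA5 in 6 each and COL6A2 in 3. The clone 2 call of COL7A1 (adjusted p = 0.0371) was lost in 9 of 19, and COL7A1 was called in clone 1 without clone 1 replicate 1 (0.0319). Leaving out wild type replicate 1 ended the clone 1 calls of COL17A1 (0.0569), COL9A3 (0.0847) and LAMA2 (0.0505). In clone 1 it also ended those of COL19A1 (0.0890), COL6A1 (0.0691), COL6A2 (0.0853), COL9A2 (0.132), LAMA3 (0.139) and LAMA5 (0.144). In clone 2 it ended those of COL7A1 (0.0541) and COL9A3 (0.0529). Leaving out clone 2 replicate 1 ended the clone 2 calls of COL9A3 (log2 0.70), LAMC3 (0.76) and COL7A1 (0.95). Leaving out clone 2 replicate 2 ended those of COL17A1 (log2 1.76), COL4A4 (-0.38) and COL7A1 (1.02). With low sample numbers only, the clone 1 calls of COL5A2 (log2 0.58), COL17A1 (1.23), COL9A3 (0.63) and COL9A1 (-1.51) ended. So did those of COL19A1 (0.19), COL6A2 (0.27) and LAMA5 (0.12). The sample-number block ended the clone 1 calls of COL17A1 (adjusted p = 0.0606), COL19A1 (0.0971) and LAMA5 (0.188). COL9A3 also lost its clone 1 call without clone 1 replicate 3 (0.0633) or wild type replicate 2 (0.0755). COL1A1, COL4A3, COL4A4, LAMA4, LAMB2 and LAMC3 in clone 1, and COL1A1, COL25A1, COL4A3, COL5A2, LAMA2, LAMA4 and LAMB2 in clone 2, were called under every alternative run. Tested directly, clone 2 against clone 1, 2 chains were higher and 2 lower (1.1% and 0.993% of all features, 2.09% in either direction). COL5A2 was 2.20-fold higher in clone 2 than in clone 1 (log2 1.14, SE 0.14, adjusted p = 0.000245) and COL1A1 1.33-fold higher (log2 0.41, SE 0.09, adjusted p = 0.0247). LAMA4 was lower in clone 2 by 0.70 (SE 0.10, adjusted p = 0.000965) and COL25A1 by 0.80 (SE 0.15, adjusted p = 0.0127). The COL1A1 difference was lost without clone 1 replicate 1 (0.0508) or 2 (0.112) or clone 2 replicate 1 (0.148) or 2 (0.132), and the COL25A1 difference without clone 2 replicate 1 (0.140). PDGFRA, a fibroblast marker, stood at 37.9 and 40.4 CPM in clone 2 and at 1.51, 1.70 and 1.55 CPM in clone 1, beside 0.831 to 1.02 CPM in wild type. DCN and LUM, defining fibroblast markers, had no counts. THY1, another marker of the list, stood at 0.198 and 0.128 CPM in clone 2 and at 1.27, 0.686 and 1.46 CPM in clone 1, beside 0.257 to 0.427 CPM in wild type. TWIST1 had 7.75 to 10.8 CPM in all libraries, and the other 5 of the 10 markers averaged under 1 CPM. The part of these markers in the clone difference was not tested.

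The 26 chains that were not tested had few or no counts. LAMA1, COL8A1, COL10A1, COL5A1, COL6A5, COL4A1, COL22A1, COL1A2 and COL6A6 had none in the 8 paired-end libraries, and the other 17 had 1 to 34 counts in all, at most 12 in any library. COL8A1 (10 and 7 counts), COL10A1 (4 and 14) and COL6A6 (9 and 12), at 0 in every paired-end library, had counts in the single-end knockout and wild type libraries.

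In the single-end pair, which has no replicates and gives no test, 30 chains had at least 20 counts. COL19A1 had 1021 counts (24.3 CPM) in the knockout library and 350 (8.09 CPM) in the wild type library, a log2 ratio of 1.58, and COL5A2 had 224 and 113 counts (1.01). LAMA4 had 293 and 684 counts (log2 ratio -1.18) and COL24A1 had 22 and 58 (-1.28). These 2 chains up and 2 down were the ones past 2-fold, beside 2.97% of features up and 1.62% down. Of the 17 chains called in the paired-end mean of clones 16 had at least 20 counts here, and all 16 had a ratio of the same sign. Among all 3630 called features with as many counts, 86.2% did. COL17A1, the remaining called chain, had 4 counts in the knockout and 3 in the wild type library.

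Levels of GC-rich and GC-poor genes differed between the libraries, and the fold changes of the chains moved with GC content. The Spearman correlation of levels, relative to each gene's mean, with GC content was -0.42 to -0.25 in wild type libraries. In knockout libraries it was -0.05 to 0.39, with no overlap. The GC trend and the genotype therefore cannot be told apart, and the GC offset removes both where they coincide. Across 19549 genes, the Spearman correlation between the log2 fold change of the mean of clones and transcript GC content was 0.43, and across the 30 chains it was 0.49. Genes share libraries, so these are descriptions and carry no test. Of the chains that rose, LAMA5 (65.3% GC), COL6A2 (65.3%), COL7A1 (64.5%), COL9A3 (64.1%), COL6A1 (63.6%), LAMC3 (62.9%), COL1A1 (61.0%) and LAMB2 (59.9%) were GC-rich, while COL17A1 (54.4%), COL5A2 (48.7%) and COL19A1 (44.6%) were not. All 6 chains that fell lay between 46.0% (COL25A1) and 50.02% (COL4A4). With the GC offset, LAMB2 (log2 0.37), COL1A1 (0.65), LAMC3 (0.98), COL9A3 (0.58), COL5A2 (1.29), COL17A1 (1.92), COL19A1 (0.61) and COL6A1 (0.12) remained called higher. LAMA4 (-0.85), LAMA2 (-0.75), COL4A3 (-0.61), COL25A1 (-0.50), COL4A4 (-0.41) and LAMA3 (-0.36) remained called lower. COL9A1 (-0.89) and COL2A1 (-0.24) joined the chains called lower, and LAMA5, COL6A2 and COL7A1 were no longer called.

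**Figure D5:**
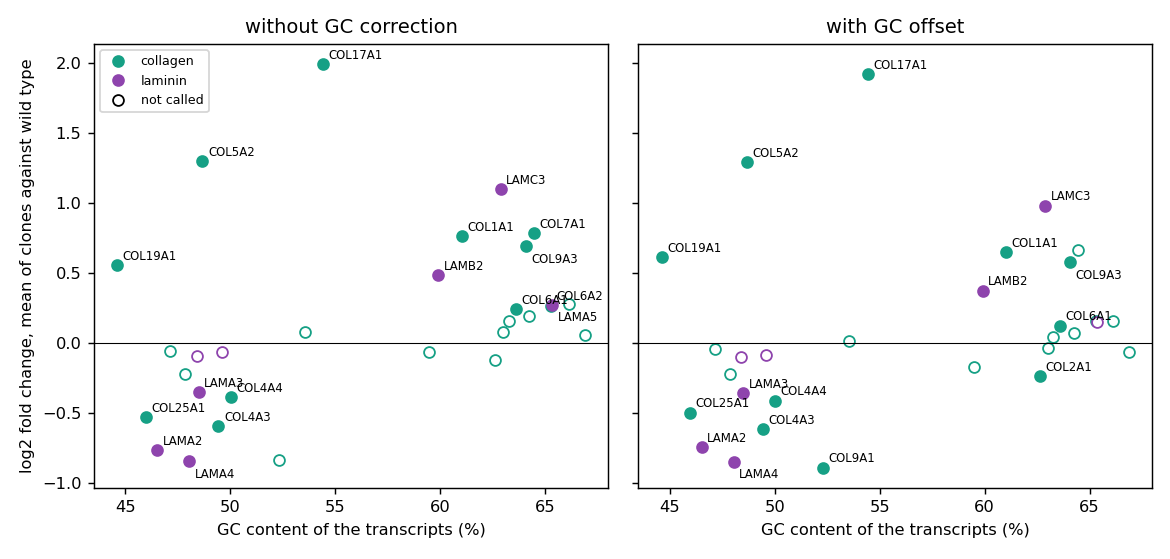
Log2 fold change of the mean of clones against wild type for the 30 tested chains, plotted against the GC content of their transcripts, without (left) and with (right) a GC offset per library. Filled points are called at an adjusted p below 0.05, in green for collagens and purple for laminins, and on the right 8 are called higher and 8 lower. The share of all features called with the offset is not given here.

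Genes that modify, move, crosslink and bind these chains were counted from lists written from textbook knowledge, in the mean of clones, where 9.87% of all features rose and 8.09% fell. Of 17 measured genes of collagen modification and folding, 2 rose and 4 fell (median log2 fold change 0.07). COLGALT2, a collagen galactosyltransferase, averaged 8.86 CPM in clone 1 and 10.7 CPM in clone 2, against 16.5 CPM in wild type, and fell by 0.75 (SE 0.08, adjusted p = 2.16e-05). PLOD3, a lysyl hydroxylase and glucosyltransferase, had a log2 fold change of 0.24 (adjusted p = 0.00537, and 0.0599 without wild type replicate 1) and CRTAP, a partner of prolyl 3-hydroxylase, of 0.17 (adjusted p = 0.0427). PLOD2, the lysyl hydroxylase of collagen telopeptides, fell by 0.23 (adjusted p = 0.0131), a call lost with the GC offset (log2 -0.04, adjusted p = 0.665) and without clone 2 replicate 1 (0.0536) or wild type replicate 1 (0.0898) or 3 (0.0721). The CRTAP call was lost under 14 of 20 alternatives, among them leaving out any library but clone 1 replicate 3, at adjusted p up to 0.222.

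Of 18 measured genes of procollagen transport, processing and crosslinking, 1 was called higher and 4 lower (median 0.08). PXDN, the peroxidasin that forms the sulfilimine crosslinks of type IV collagen, had 1, 0 and 0 counts in clone 1 and 5 and 1 counts in clone 2, against 28, 16 and 35 counts in wild type, and was called lower (adjusted p = 9.54e-05). TLL1, a procollagen proteinase, had 4, 5 and 6 counts in clone 1 and 2 and 2 counts in clone 2, against 51, 34 and 59 counts in wild type, and was called lower as well (adjusted p = 1.86e-06). Both genes passed the filter on low counts, 0.243 CPM, through wild type only, so that a difference followed from passing it. BMP1, the related proteinase, had a log2 fold change of 0.22 (adjusted p = 0.0264). The BMP1 call was lost under 9 of 20 alternatives, among them the GC offset (0.207) and leaving out clone 2 replicate 1 (0.0605) or 2 (0.0682) or wild type replicate 1 (0.130), 2 (0.112) or 3 (0.0658).

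Of 8 measured basement membrane partners, 2 rose and 2 fell (median -0.07). HSPG2, which encodes perlecan, averaged 141 CPM in clone 1 and 150 CPM in clone 2, against 97.1 CPM in wild type, and rose by 0.58 on the log2 scale (SE 0.07, adjusted p = 4.92e-05). AGRN, which encodes agrin, had a log2 fold change of 0.24 (adjusted p = 0.0229), lost with the GC offset (0.107) and without clone 2 replicate 1 (0.0763) or wild type replicate 1 (0.150) or 2 (0.0929). NID2, a nidogen that links laminin to type IV collagen, averaged 36.2 CPM in clone 1 and 25.1 CPM in clone 2, against 41.6 CPM in wild type, and fell by 0.47 (SE 0.05, adjusted p = 2.77e-05). With both clones as 1 group the adjusted p of NID2 was 0.121. NTN4, a laminin-related netrin, fell by 1.81 (SE 0.20, adjusted p = 3.07e-05).

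Of 15 measured collagen and laminin receptors, 6 rose and 1 fell (median 0.10). ITGB4, the integrin beta chain of hemidesmosomes, averaged 4.40 CPM in clone 1 and 4.55 CPM in clone 2, against 2.29 CPM in wild type, and rose by 0.96 (SE 0.13, adjusted p = 0.000285). MRC2, a collagen uptake receptor, rose by 0.38 (SE 0.07, adjusted p = 0.00147), and ITGA3, BCAM, DDR1 and ITGA7 were the other 4 that rose. ITGA1, the alpha chain of a collagen-binding integrin, averaged 2.48 CPM in clone 1 and 1.72 CPM in clone 2, against 7.06 CPM in wild type, and fell by 1.76 (SE 0.15, adjusted p = 4.55e-06). The lists are described by these counts and were not tested as sets.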

How the data were processed

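RNA of 10 HAP1 libraries was sequenced after a stranded mRNA preparation from 65 ng of total RNA, per the labels' protocols, whose text is identical for the single-end libraries. The authors deposited whole-number counts per gene and repeat subfamily, not normalized, 1 table for 8 paired-end and 1 for 2 single-end libraries. The submitters' processing notes name the aligner STAR 2.5.2a and the build hg38 (GRCh38), and TEToolkit, a counter of genes and repeats, stands in the table names. Its version, its strand setting, how it treated reads with more than 1 alignment and which annotation was used were not given in the sources used here.

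From these counts, edgeR 4.0.16 (limma 3.58.1, R 4.3.3) kept 20747 of 59238 features with filterByExpr, scaled them with TMM and fitted a robust quasi-likelihood model with 1 mean per group to the 8 paired-end libraries. F tests of clone 1, clone 2 and the mean of clones against wild type, and of clone 2 against clone 1, were Benjamini-Hochberg adjusted across all features and called at an adjusted p below 0.05. A log2 fold change with no contrast named is that of the mean of clones, and an adjusted p without a tool named is edgeR's. The SE was taken from the log2 fold change and the F statistic (its square root as divisor) and is approximate, most of all where a group has few counts. Intervals are at 95%. Levels are CPM over TMM-scaled library sizes, divided by exon length (kb) where genes are compared. Levels, their sums and the shares carry no GC correction. Exon length, GC content and gene coordinates are from GENCODE 29 (GRCh38). Exon length joins the exons of all annotated transcripts, so levels per kb are too low for genes expressed as shorter transcripts. Single-end ratios used a prior count of 2 and at least 20 counts in the pair. Promoter windows are from RefSeq (GRCh38.p14), with 41 of 56 genes matched. The code was tested on simulated data.

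The labels do not tell whether replicates are separate cultures, and the p-values therefore reflect only the spread among these samples, possibly a technical one. Total counts limit the precision for low chains, and limits from counts of 0 cover counting error only.

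The members, lists and tests were chosen with earlier results of these data known. Every member called in any contrast is named with values, as are uncalled members whose mean log2 CPM is 1 or more, and up to 2 called genes per direction from each list. Other names complete small counts and were chosen after their values were seen. Alternatives were DESeq2 1.42.0 or its size factors, other filters, gene rows only, replicate, sample-number and GC terms, both clones as 1 group, and leaving out each library. ERCC spike-ins were not used here, and the values of 1 untested chain and 1 marker gene are not reported here.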

Additional observations from a re-analysis of the deposited data

Results flagged for a closer look

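The effect against wild type differed between the clones for 4 chains, by the test of clone 2 against clone 1 in the edgeR fit (1.1% of all features were higher and 0.993% lower in clone 2). COL5A2 was higher in clone 2 by 1.14 on the log2 scale and COL1A1 by 0.41, while the difference of clone 2 from clone 1 was -0.70 for LAMA4 and -0.80 for COL25A1. Against wild type the estimate had the same sign in both clones for each of the 4, though COL25A1 was not called in clone 1. Each clone is a single clone with 3 (clone 1) or 2 (clone 2) libraries, so the genotype and the history of a clone cannot be told apart. No group had the 4 libraries that a test for outlying samples needs.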

How the results depend on the processing

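The 50 calls of chains over the 4 contrasts gave 966 alternative values, of which 855 kept direction and call, 111 lost the call and 0 changed direction. Of 1331 alternative values of the 70 results not called, 66 were called. In the mean of clones COL17A1, COL1A1, COL4A3, COL4A4, COL9A3, LAMA2, LAMA4, LAMB2 and LAMC3 were called under every alternative run. Of these, COL17A1 passed the filter on low counts through the knockout libraries, which favoured a difference. The 11 chains that rose in the mean of clones became 6 to 11 when each library was left out, with 6 when wild type replicate 1 was left out and 7 when wild type replicate 2, or clone 2 replicate 1, was. In clone 1 the 11 chains that rose became 4 to 11 (4 without wild type replicate 1, 5 without clone 1 replicate 3, 6 without wild type replicate 2), 7 with the GC offset, 7 with the GC offset and replicate block, and 5 with low sample numbers only. In clone 2 the 7 chains that rose became 13 with no filter on low counts, 11 with the replicate block and 11 with low sample numbers only, and 5 to 9 when each library was left out (5 without wild type replicate 1 or clone 2 replicate 1). Between clones, the 2 higher and 2 lower chains became 1 to 2 and 1 to 2 when a library was left out, with 1 higher without clone 1 replicate 1 or 2 or clone 2 replicate 1 or 2, and 1 lower without clone 2 replicate 1. In the single-end pair the 2 chains past 2-fold upwards became 1 with a prior count of 10. Leaving out a clone 2 library leaves 1, assumed to vary like the other groups, and every such fit has fewer samples; the cause of the other changes was not tested.

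The replicate numbers did not pair the libraries across all groups: 2 of 7 same-numbered pairs had a correlation over 0.1 (range -0.22 to 0.23). Both were of clone 1 with clone 2, at 0.23 for replicate 1 and 0.18 for replicate 2. In both clones replicate 1 has a low sample number and replicate 2 a high one. Replicate number and sample number therefore cannot be told apart in these pairs. Clone 2 has only 2 libraries, whose deviations mirror each other, so its values are not independent. In 0 of 8 libraries did every same-numbered library correlate better than all libraries of another number. With the replicate number as a block, 11 chains rose and 6 fell in the mean of clones. Column names carry sample numbers, of which high ones belong to knockout libraries only. Depth limits the chains under about 1 CPM, such as COL9A1, COL17A1 and COL23A1.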
